A study of Mus musculus with 22 samples.

Results

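The transcripts followed here are those of 9 genes of the cells that wrap brain vessels and line the brain surface: Pdgfrb, Abcc9, Acta2, Col1a1, Col1a2, Dcn, Lum, Igf2 and Slc6a13. Their members on the array were all probesets, the short stretches of exon that the array measures, for which the platform annotation gave one of these symbols alone. There were 272 such probesets among the 1190406 with values. Of the 272, 241 passed the filter on dim signal (a mean log2 value of at least 1.44 over all arrays) and 31 did not. A gene value, the median of a gene's kept probesets on each array, was available for 8 of the 9 genes and for 16016 genes in all. Lum kept 2 probesets, fewer than the 3 required, and is described by probeset.

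Total RNA from whole brains of untreated adult males was hybridised to the Affymetrix Mouse Exon 1.0 ST array, 1 mouse per array. The mice were of the inbred strains DBA/2J (D2, n = 12) and C57BL/6J (B6, n = 10), and D2 was compared with B6. Differences are given as D2 minus B6 on the log2 scale of the deposited values, and a feature was called at a Benjamini-Hochberg adjusted p under 0.05 in limma, adjusted over all features tested. The strain was the only difference between the groups in the labels, and the labels do not state how much of the meninges came with the brain.

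Pericytes and vascular smooth muscle cells, together called mural cells, sit on the outer face of the endothelium, set vessel tone and maintain the barrier between blood and brain. Fibroblasts lie in the meninges and along the larger vessels, where they make collagen fibres, small proteoglycans and growth factors. Both kinds of cell are a minor part of a whole brain. In RNA of the whole organ, fewer cells of a type and less RNA per cell cannot be told apart.

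Over the kept probesets, r between 2 arrays of a strain was at least 0.914, and the highest r of any 2 arrays was 0.960. The medians of whole arrays were 1.45 to 1.51 in D2 and 1.41 to 1.47 in B6, so this measure of the array moved with strain. The name of each array's scan carries a letter A (18 arrays) or B (4 arrays, 2 of each strain) whose meaning the labels do not give. The mean log2 value of 5 neuronal genes was 8.47 to 8.88 in D2 and 8.58 to 8.96 in B6, a check of the tissue. D2 replicates 13, 14 and 19 were the arrays least like their strain in earlier work on these data, and results were also computed without them.

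Of the 8 gene values, that of Acta2 differed between the strains and was lower in D2. Of all 16016 genes, 10.8% were called, 8.26% lower and 2.57% higher in D2, so 1 call among 8 genes was near the background. The values of Pdgfrb and Slc6a13 lay lower in D2 and that of Col1a1 higher, by 0.26 to 0.33, without passing the test. Abcc9, Col1a2, Dcn and Igf2 differed by no more than 0.10. D2 and B6 overlapped in all 8 genes, while 1.18% of all genes had groups that did not overlap. The median difference of all genes was -0.05. Of all calls 76.3% were lower in D2, but 42.5% with each array centred on its median gene value, which moved that median to 0.05, and 46.3% with the array median as a covariate.

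**Figure D1:**
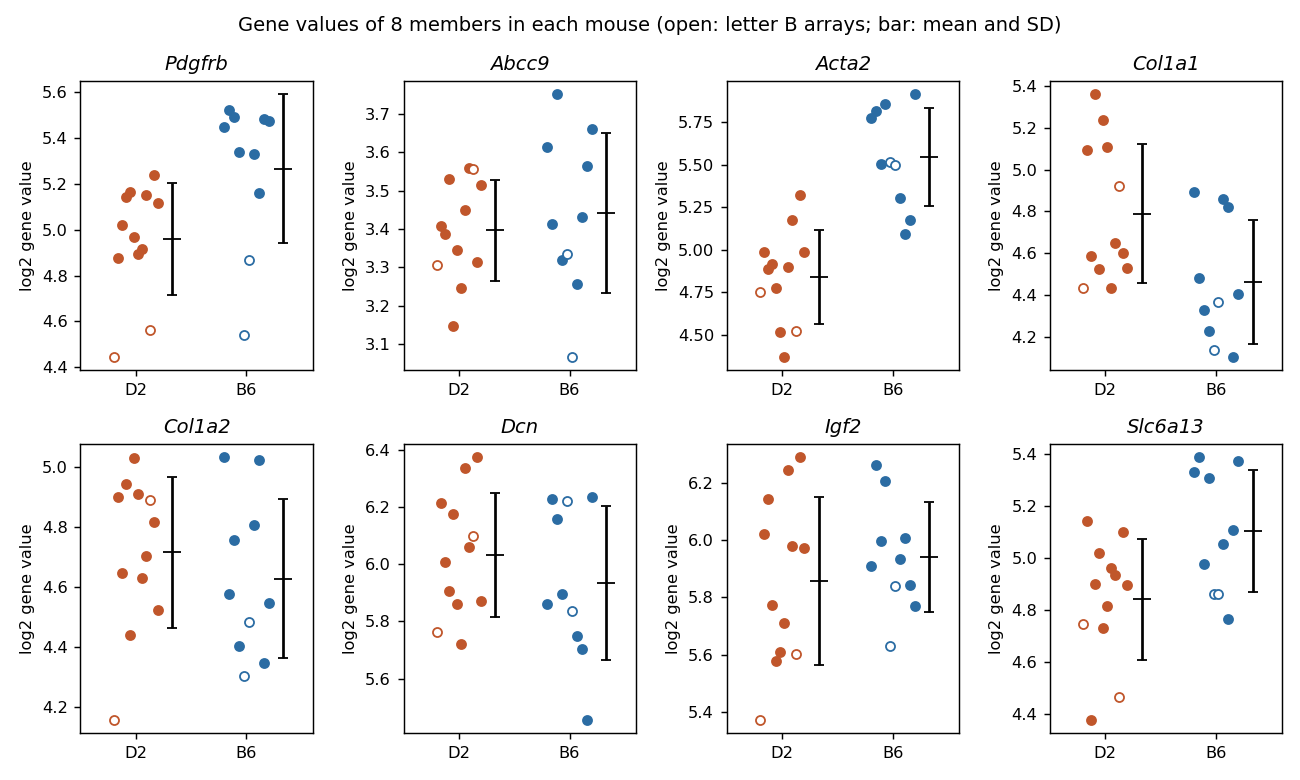
Gene values (log2, vertical axes, which differ between panels and do not start at 0) of 8 genes in each D2 mouse (left, n = 12) and each B6 mouse (right, n = 10). Open circles are the letter B arrays, and bars give the mean and SD. In the Acta2 panel most D2 mice lie below all B6 mice, and in the Pdgfrb panel the letter B arrays are the lowest of each strain.

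Acta2 encodes smooth muscle alpha-actin, the contractile actin of vascular smooth muscle, and defines arterial and arteriolar mural cells. It was measured by 11 probesets, of which 10 passed the filter. Its promoter is shown because Acta2 was the gene with a strain call, and that of Col1a2 because its gene value moved with Col1a1 within both strains, as described below. Each sequence is the 150 bases before the RefSeq start in the GRCm38.p6 table, 5′ to 3′ on the strand of the gene. The Acta2 stretch is chr19:34255374-34255523 on the minus strand and the Col1a2 stretch is chr6:4505468-4505617 on the plus strand. Capitals mark matches to CCAAT, the CCAAT box, and to a loose CArG frame, CC and GG with any 6 bases between them, which contains the box that serum response factor binds. The table held windows for 5 of the 9 genes.
Acta2: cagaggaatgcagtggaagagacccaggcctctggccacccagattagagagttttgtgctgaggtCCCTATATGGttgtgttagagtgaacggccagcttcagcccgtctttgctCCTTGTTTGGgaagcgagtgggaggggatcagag
Col1a2: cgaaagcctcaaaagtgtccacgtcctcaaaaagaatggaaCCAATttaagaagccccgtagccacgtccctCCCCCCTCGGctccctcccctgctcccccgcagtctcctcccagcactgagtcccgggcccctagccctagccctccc
The Acta2 stretch held 2 matches to the CArG frame, which begin 84 and 34 bases before the start. The Col1a2 stretch held CCAAT at 109 bases and a CArG frame at 78 bases before the start, and the matches do not overlap each other. Both strands were searched, also for TATAA, which neither stretch holds. Among the 32851 windows of this length in the table, the CArG frame was found in 53.5%, CCAAT in 24.5% and TATAA in 14.2%. A match of these letters is a description of the window and not a site.

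The Acta2 gene value was 4.37 at its lowest, 4.89 at its median and 5.32 at its highest in D2 mice. In B6 mice it was 5.09 at its lowest, 5.51 at its median and 5.92 at its highest. The ranges met only at their edges, where 2 D2 mice lay above the lowest B6 mouse. Means were 4.84 ± 0.28 in D2 (SD, n = 12) and 5.55 ± 0.29 in B6 (SD, n = 10). The difference was -0.70 (SE 0.12, adjusted p = 0.000138 in limma), which is 0.614 times the B6 level.

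All 10 kept probesets were lower in D2, by 0.40 to 0.90, and 7 of them were called, where 2.24% of all kept probesets were called lower. The brightest of the called probesets, 4966574, was 5.93 at its lowest, 6.37 at its median and 6.88 at its highest in D2. In B6 it was 6.76 at its lowest, 6.96 at its median and 7.26 at its highest. Its difference was -0.68 (SE 0.12, adjusted p = 0.000410), and the groups overlapped only between 6.76 and 6.88. The 3 probesets without a call differed by -0.40, -0.41 and -0.55, and the dimmest of them, 4436972, had SDs of 0.72 in D2 and 0.91 in B6. To ask whether single exons move apart from their gene, limma was also run on the splicing index, the value of a probeset minus that of its gene in the same mouse. No Acta2 probeset was called on this index. The 10 probesets belong to one gene, so they are not independent measurements of the strain difference.

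**Figure D2:**
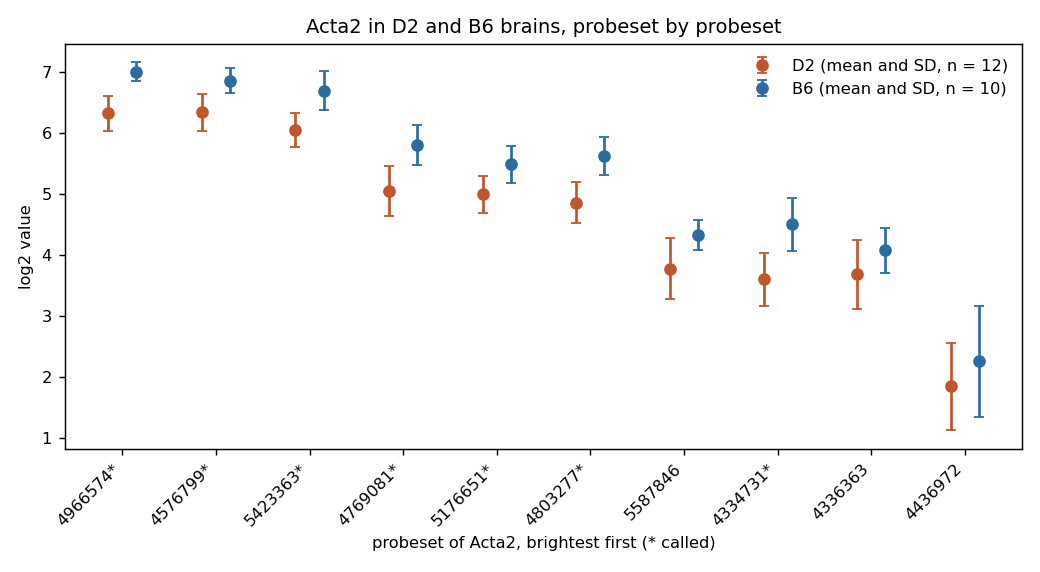
Log2 values of the 10 kept Acta2 probesets (horizontal axis, brightest first, asterisks mark called probesets) in D2 (n = 12) and B6 (n = 10). Points and bars are means and SDs, and in each pair the D2 mean lies below the B6 mean.

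The call on Acta2 held in the 18 letter A arrays alone (-0.67, adjusted p = 0.00240) and without D2 replicates 13, 14 and 19 (-0.66, adjusted p = 0.000965). It was lost with the array median as a covariate, at -0.39 with an adjusted p of 0.191 in limma, a setting in which 495 genes were called, against 1735 without it. Within each strain, too, Acta2 ran against the array median, with r of -0.53 in D2 and -0.54 in B6.

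Of 13 genes on a vascular smooth muscle list, Acta2 included, 3 fell in D2 and none rose, where 8.26% of all genes fell. The median difference of the 13 was 0.00, against -0.05 over all genes, and it depended on the scaling and the filter. It was 0.10 with arrays centred, against 0.05 over all genes. With the array median as a covariate it was -0.13, against 0.02 over all genes. In that setting 2 of 13 lay above 0, where 8834 of all 16016 genes did, and none of the 13 was called. With a stricter filter, at the 75th percentile of probeset means, the median was -0.13 over the 8 genes left, against -0.07 over all genes. The other 2 that fell were Myl9, a regulatory myosin light chain (4.56 ± 0.30 in D2 and 5.02 ± 0.23 in B6, -0.46, adjusted p = 0.00813), and Pln, phospholamban, which restrains the calcium pump of the sarcoplasmic reticulum (-0.29, adjusted p = 0.0461). Myh11, smooth muscle myosin heavy chain, differed by -0.04 (adjusted p = 0.817), and Tagln, transgelin, by 0.00 (adjusted p = 0.991). The mean log2 value of the 12 genes other than Acta2 was 2.74 to 2.97 in D2 and 2.80 to 3.05 in B6, ranges that overlapped widely. Apart from Myl9 these genes were dim, with levels between the 2.8th (Lmod1) and the 29.0th (Smtn) percentile of all genes.

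Among the 6 actin genes, Acta2 alone was called. The cytoplasmic actins Actb and Actg1 differed by 0.06 each (adjusted p = 0.638 and 0.670). Acta1, skeletal muscle actin, differed by 0.28 (adjusted p = 0.122), Actc1, cardiac actin, by 0.10 (adjusted p = 0.552) and Actg2, enteric smooth muscle actin, by 0.14 (adjusted p = 0.457). Whether the difference of Acta2 departs from theirs was not tested.

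Pdgfrb encodes the receptor through which endothelial PDGF-B recruits and keeps pericytes. Its gene value over 29 probesets was 4.45 at its lowest, 4.99 at its median and 5.24 at its highest in D2, against 4.54, 5.39 and 5.52 in B6. Most B6 mice lay above every D2 mouse, and the exceptions in B6 were letter B arrays and 1 other mouse. The difference was -0.31 (SE 0.12) and did not pass the test (adjusted p = 0.0918 in limma).

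Pdgfrb also differed by file letter within each strain. The 2 letter B arrays of D2 read 4.45 and 4.56 and the other D2 arrays 4.88 to 5.24. In B6 the 2 letter B arrays read 4.54 and 4.87 and the others 5.16 to 5.52. With the letter as a block the difference was -0.33 and passed (adjusted p = 0.00145), as it did within the letter A arrays alone (-0.36, adjusted p = 0.00291). Within the letter B arrays, 2 against 2, it was -0.20 (adjusted p = 0.721).

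By probeset, 28 of the 29 Pdgfrb probesets were lower in D2, where 58.4% of all kept single-gene probesets were. One, 5027184, was called. It was 2.28 at its lowest, 3.93 at its median and 4.94 at its highest in D2, against 4.09, 4.86 and 5.12 in B6. The difference of this probeset was -0.90 (SE 0.22, adjusted p = 0.0152), and the D2 mice spread more widely than the B6 mice. It was also the only probeset of the 9 genes called for exon usage, with an index difference of -0.59 (adjusted p = 0.0326), while 1.66% of all indices were called, 0.77% lower and 0.894% higher in D2. That call was lost with the 75th percentile filter, with the array median as a covariate, in the arrays of either letter alone, and without D2 replicates 13, 14 and 19. Whether D2 variants lie under the probes of 5027184 was not tested. The brightest Pdgfrb probeset, 4497207, differed by -0.14 (adjusted p = 0.664).

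The partners of Pdgfrb gave no call. Of 6 PDGF ligands and receptors, none passed the test in limma in either direction, where 10.8% of all genes did. At an unadjusted p under 0.05 in limma there were 4 of the 6, and 4050 of all 16016 genes. The median difference of the 6 was -0.23. Pdgfd, a ligand of the same receptor, differed by -0.46 (3.28 ± 0.37 in D2 and 3.73 ± 0.41 in B6, adjusted p = 0.0572). Pdgfb, the pericyte-recruiting ligand, differed by -0.28 (adjusted p = 0.196), and Pdgfra, the receptor of fibroblasts and oligodendrocyte precursors, by 0.02 (adjusted p = 0.943).

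Abcc9 encodes SUR2, the regulatory subunit of the ATP-sensitive potassium channel of mural cells. Its gene value was 3.15 at its lowest, 3.40 at its median and 3.56 at its highest in D2, against 3.07, 3.42 and 3.75 in B6. The D2 range lay inside the B6 range, and the difference was -0.04 (SE 0.08, adjusted p = 0.771). Of its 41 kept probesets 30 were lower in D2, by up to 0.53, and none was called (4 at an unadjusted p under 0.05 in limma). A further 8 did not pass the filter. Of the 4 channel subunits measured, Kcnj11, the pore subunit Kir6.2 of neurons and islet cells, fell in D2 (3.64 ± 0.48 in D2 and 4.57 ± 0.25 in B6, -0.93, adjusted p = 0.000142), where 8.26% of all genes fell. Kcnj8, the pore subunit Kir6.1 that pairs with SUR2 in pericytes, differed by -0.17 with SDs of 0.74 in D2 and 0.54 in B6 (adjusted p = 0.712).

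Of 14 pericyte genes, Pdgfrb and Abcc9 included, 1 fell in D2 and none rose, with a median difference of -0.09, a share near the 8.26% of all genes that fell. The one that fell was Vtn, vitronectin (7.82 ± 0.31 in D2 and 8.19 ± 0.21 in B6, -0.37, adjusted p = 0.0329). Rgs5, a regulator of G-protein signalling that marks brain pericytes, differed by 0.07 (adjusted p = 0.640). The other 12 pericyte genes averaged 4.14 to 4.52 in D2 and 4.32 to 4.67 in B6.

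Col1a1 and Col1a2 encode the alpha-1 and alpha-2 chains that assemble into type I collagen, the fibre of the meninges and adventitia. The Col1a1 gene value over 54 probesets was 4.43 at its lowest, 4.62 at its median and 5.36 at its highest in D2, against 4.10, 4.38 and 4.89 in B6. In D2, 5 mice lay above every B6 mouse, and the other 7 lay within the B6 range. The difference was 0.33 (SE 0.13), and it missed the threshold (adjusted p = 0.106).

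The Col1a1 probesets ran the same way nearly without exception: 53 of 54 were higher in D2, by up to 1.18, and 2 were called, where 1.67% of all kept probesets were called higher. Probeset 4881048 was 3.96 at its lowest, 4.74 at its median and 5.07 at its highest in D2, against 3.24, 3.98 and 4.83 in B6 (0.65, adjusted p = 0.0236). Probeset 5127053 averaged 4.66 ± 0.36 in D2 and 4.05 ± 0.45 in B6 (0.60, adjusted p = 0.0453). Neither was called in the letter A arrays alone, where no Col1a1 probeset passed. The largest difference, 1.18 at probeset 5456516, came with SDs of 1.03 in D2 and 1.06 in B6 and did not pass (adjusted p = 0.117).

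Col1a2 showed less of this. Its gene value over 55 kept probesets was 4.16 at its lowest, 4.76 at its median and 5.03 at its highest in D2, against 4.30, 4.56 and 5.03 in B6. The ranges coincided almost wholly, and the difference was 0.09 (SE 0.11, adjusted p = 0.653). Of the 55 probesets 40 were higher in D2, and none was called (7 at an unadjusted p under 0.05 in limma). A further 8 did not pass the filter, and 1 more on the platform had no value.

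Other collagen genes also lay higher in D2. Of 17 fibrillar and other collagens, the 2 type I chains included, 1 had a difference below 0, where 61.9% of all genes did. The 15 beside the type I chains were dim, at averages of 3.2 to 3.4 in D2 and 2.9 to 3.3 in B6, and the shares given cover genes of all levels. At the threshold 3 of the 17 rose and none fell, where 2.57% of all genes rose and 8.26% fell. The 3 were Col27a1, a fibrillar collagen of cartilage (3.90 ± 0.20 in D2 and 3.47 ± 0.27 in B6, 0.43, adjusted p = 0.00474), Col3a1, the fibrillar chain found with type I collagen in soft tissue (3.56 ± 0.17 in D2 and 3.19 ± 0.23 in B6, 0.37, adjusted p = 0.00675), and Col5a2, of the type V collagen that nucleates type I fibres (0.29, adjusted p = 0.0395). The median of the 17 was 0.16. With the array median as a covariate it was 0.04, against 0.02 over all genes. In that setting 12 of 17 lay above 0, as did 8834 of all 16016 genes, and 1 of the 17 was called. Without the covariate, the one below 0 was Col12a1, of collagen XII (-0.16, adjusted p = 0.230).

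The 18 genes that process collagen had a median difference of -0.07, near the -0.05 of all genes. With arrays centred it was 0.03, against 0.05 over all genes. In that setting 11 of the 18 lay above 0, as did 16 of the 17 collagens and 9660 of all 16016 genes. Without centring, 2 of the 18 fell in D2 and none rose, where 8.26% of all genes fell and 2.57% rose. They were P4ha1, a prolyl 4-hydroxylase that stabilises the collagen helix (5.97 ± 0.14 in D2 and 6.35 ± 0.18 in B6, -0.38, adjusted p = 0.00162), and Sparc, a collagen-binding protein of the matrix (-0.26, adjusted p = 0.0333). Of 12 basement membrane genes, 1 fell: Lama2, the laminin alpha-2 chain (-0.38, adjusted p = 0.000632).

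Dcn encodes decorin, a small leucine-rich proteoglycan that binds collagen fibrils. It was 5.72 at its lowest, 6.03 at its median and 6.38 at its highest in D2, against 5.46, 5.88 and 6.24 in B6, with most mice of both strains in a common range. The difference was 0.10 (SE 0.10, adjusted p = 0.584). It was larger in several other settings, 0.27 with no filter, 0.22 with the 75th percentile filter, 0.20 with arrays centred and 0.33 with the array median as a covariate, and passed the test in none of them (adjusted p of 0.0981 to 0.244). Of 12 kept probesets 9 were higher in D2 and none was called (4 at an unadjusted p under 0.05 in limma). A further 6 did not pass the filter. The brightest, 4843174, averaged 7.79 ± 0.23 in D2 and 7.47 ± 0.29 in B6 (0.32, adjusted p = 0.167).

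Lum encodes lumican, a keratan sulphate proteoglycan of the same family. Of its 5 probesets, 3 lay far below the filter, with means of -0.01 to 0.60 in D2 and 0.02 to 0.69 in B6. Of the 2 that passed the filter, 4974977 averaged 3.77 ± 0.49 in D2 and 3.79 ± 0.27 in B6 (-0.02, adjusted p = 0.967). The other, 5429807, was close to the filter. It was 0.79 at its lowest, 1.33 at its median and 1.71 at its highest in D2, against 0.86, 1.95 and 2.97 in B6. It passed the filter through the B6 mice alone, since its D2 mean of 1.31 was below the filter level and its B6 mean was 2.02. Its difference of -0.71 is therefore given with no test.

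Of 5 small leucine-rich proteoglycans with a gene value, Ogn, osteoglycin, fell in D2 (3.19 ± 0.30 in D2 and 3.67 ± 0.33 in B6, -0.49, adjusted p = 0.0134), where 8.26% of all genes fell. With the array median as a covariate, none of the 5 was called. Bgn, biglycan, the closest relative of decorin, differed by -0.18 (adjusted p = 0.441). The median of the 5 was -0.18.

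Igf2 encodes insulin-like growth factor II, which in the adult brain is made mostly by the meninges and choroid plexus. It was 5.37 at its lowest, 5.87 at its median and 6.29 at its highest in D2, against 5.63, 5.92 and 6.26 in B6. The B6 range lay inside the D2 range, and the difference was -0.08 (SE 0.11, adjusted p = 0.671). None of its 21 kept probesets was called (1 at an unadjusted p under 0.05 in limma), 13 lay higher and 8 lower in D2, and the brightest, 5484664, differed by -0.01. Its direction depended on the processing: with no filter on dim probesets the difference was 0.34 (adjusted p = 0.130), and with the mean over probesets 0.077 (adjusted p = 0.475). Of 15 genes of the insulin-like growth factor axis, Igfbp5 rose (0.22, adjusted p = 0.0386) and Igfbp4 fell (-0.37, adjusted p = 0.0130), both secreted proteins that bind the growth factors. Of all genes, 2.57% rose and 8.26% fell. With the array median as a covariate, none of the 15 was called.

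Slc6a13 encodes GAT2, a transporter of GABA and taurine found in meningeal fibroblasts. Its gene value was 4.38 at its lowest, 4.90 at its median and 5.14 at its highest in D2, against 4.77, 5.08 and 5.39 in B6. D2 mice lay lower on the whole, with broad overlap. The difference was -0.26 (SE 0.10) and missed the threshold (adjusted p = 0.0955). It passed narrowly with the letter as a block (-0.27, adjusted p = 0.0459) and with the mean over probesets (-0.21, adjusted p = 0.0434).

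Of the 17 kept Slc6a13 probesets, 15 were lower in D2, where 58.4% of all kept single-gene probesets were, and 2 were called, where 2.24% of all kept probesets were called lower. Probeset 4547408 was 3.31 at its lowest, 4.32 at its median and 5.13 at its highest in D2, against 4.67, 5.02 and 5.47 in B6 (-0.84, adjusted p = 0.00990). Probeset 5106044 averaged 4.38 ± 0.43 in D2 and 5.01 ± 0.21 in B6 (-0.63, adjusted p = 0.0149). The brightest, 4504134, went the other way without a call (0.13, adjusted p = 0.574), so the probesets of this gene were not uniform. Whether D2 variants lie under the probes of the called probesets was not tested. Of 4 GABA, taurine and betaine transporters measured, none was called. At an unadjusted p under 0.05 in limma there were 2 of the 4, and 4050 of all 16016 genes. Slc6a12, the betaine and GABA transporter, differed by -0.21 (adjusted p = 0.344) and Slc6a6, the taurine transporter, by 0.17 (adjusted p = 0.141).

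Over all 9 genes, 13 of the 241 kept probesets were called, where 3.91% of all 595203 kept probesets were. Of the 13, 11 were lower in D2 and 2 higher, and 7 of the 11 belonged to Acta2. One of the 11 was the Lum probeset that passed the filter through B6 alone. Of the 238 probesets whose means reached the filter in both strains, 12 were called, 10 of them lower in D2. Of the 241, 61 had an unadjusted p under 0.05 in limma. Neither this count nor those of single genes was set beside the share of all kept probesets. Probesets of one gene share their transcript, so these counts are not counts of independent results.

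**Figure D3:**
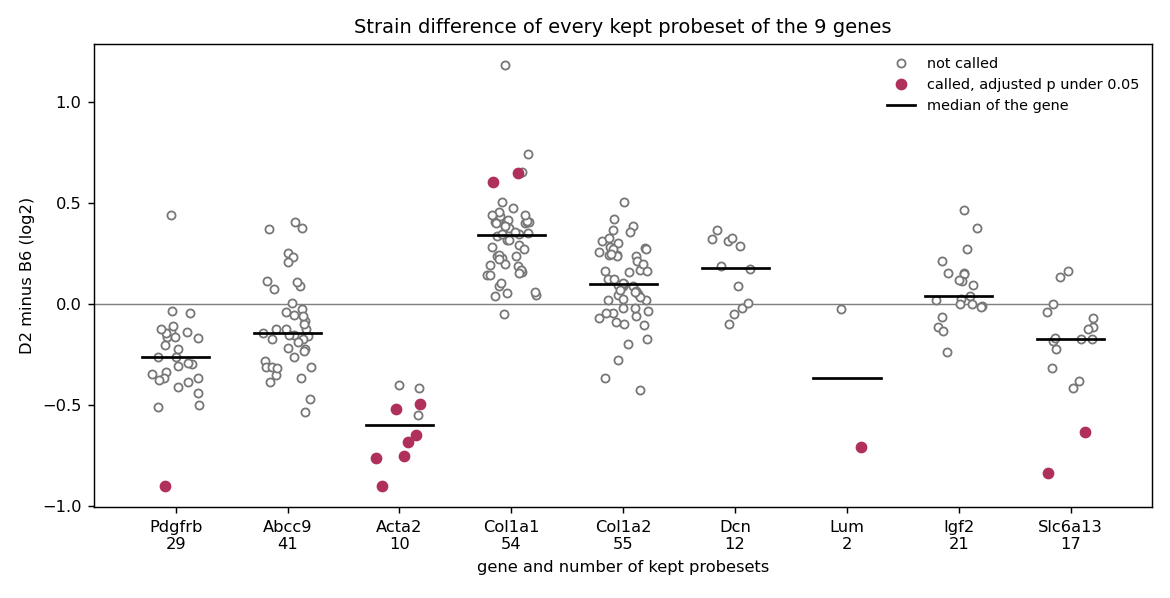
D2 minus B6 (log2, vertical axis) of each of the 241 kept probesets by gene, with the number of kept probesets under each name. Filled points are called at an adjusted p under 0.05 and bars are the median of the gene. All 10 Acta2 probesets lie below 0, 28 of 29 of Pdgfrb lie below 0 and 53 of 54 of Col1a1 lie above 0.

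Of 26 meningeal and perivascular fibroblast genes with a gene value, 3 fell and 1 rose in D2, with a median of 0.03, where 8.26% of all genes fell and 2.57% rose. Col3a1 rose, and Ogn, Slc6a20a, a proline transporter (5.57 ± 0.21 in D2 and 5.89 ± 0.19 in B6, -0.32, adjusted p = 0.0184), and Slc22a6, the organic anion transporter OAT1 (-0.30, adjusted p = 0.0238), fell. The 21 fibroblast genes other than the members averaged 3.99 to 4.34 in D2 and 4.04 to 4.34 in B6, with no separation of the strains. The split of the 26 depended on the scaling. With arrays centred 4 rose and 1 fell, where 1023 of all 16016 genes rose and 756 fell. Their median was then 0.13, against 0.05 over all genes. With the array median as a covariate 2 rose and none fell, where 266 of all genes rose and 229 fell. The median was then 0.08, against 0.02 over all genes.

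Markers of other cell types were read beside these genes, where 10.8% of all genes were called and 8.26% fell. No list was tested as a list. Of 9 endothelial genes, 3 fell and none rose, and the 9 averaged 4.06 to 4.47 in D2 and 4.26 to 4.69 in B6. They were Emcn, endomucin (-0.52, adjusted p = 0.0249), the transporter Slco1a4 and the adhesion molecule Pecam1. Of 9 choroid plexus genes, 2 fell, Folr1, a folate receptor (3.51 ± 0.27 in D2 and 4.12 ± 0.13 in B6, -0.61, adjusted p = 6.36e-05), and Otx2, a homeobox factor (-0.49, adjusted p = 0.00447). The 9 averaged 4.04 to 4.41 in D2 and 4.37 to 4.76 in B6, which hardly overlap. Of 3 red blood cell genes, 2 fell and none rose. Hbb-b1, which encodes a beta-globin and has near-identical copies, was read by 3 probesets that were not checked for D2 variants. It fell (6.04 ± 0.72 in D2 and 10.2 ± 0.2 in B6, -4.12, adjusted p = 6.53e-14), as did Alas2 (-0.90, adjusted p = 0.000598). The third, Slc4a1, differed by 0.01 (adjusted p = 0.959 in limma). The 3 averaged 3.24 to 4.67 in D2 and 5.21 to 5.78 in B6, without overlap, a gap set mostly by Hbb-b1. Of 8 genes of microglia and macrophages, Cd68 (-0.49, adjusted p = 0.00776) and Mrc1, the mannose receptor of perivascular macrophages (-0.32, adjusted p = 0.0157), fell and none rose, at averages of 4.01 to 4.28 in D2 and 4.11 to 4.55 in B6. Of 6 astrocyte genes, Gfap (-0.80, adjusted p = 6.37e-05) and Aldh1l1 (-0.40, adjusted p = 0.00247) fell and Gja1 rose (0.28, adjusted p = 0.0442). Of 5 neuronal genes, Map2 fell (-0.38, adjusted p = 0.00360). These calls depended on the scaling. With the array median as a covariate, no endothelial, microglial, astrocyte or neuronal gene was called. In that setting 1 choroid plexus gene and 1 red blood cell gene fell, where 229 of all 16016 genes fell. With arrays centred, 2 endothelial genes and 1 gene of microglia and macrophages fell, and the counts of the other lists were unchanged. The part of these cell types in the differences of Acta2, Pdgfrb and Slc6a13 was not tested.

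Within each strain, the 2 type I collagen chains rose and fell together from mouse to mouse, and few other pairs of the 9 genes did. The 8 gene values give 28 pairs in each strain. In D2, 1 of 28 pairs reached r of 0.7 or more, where 3.08% of pairs of one of these genes with any other gene did. In B6, 2 of 28 did, where 4.5% did. The median r of the pairs was 0.26 in D2 and 0.22 in B6, against 0.124 in D2 and 0.110 in B6 for pairs with any gene.

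**Figure D4:**
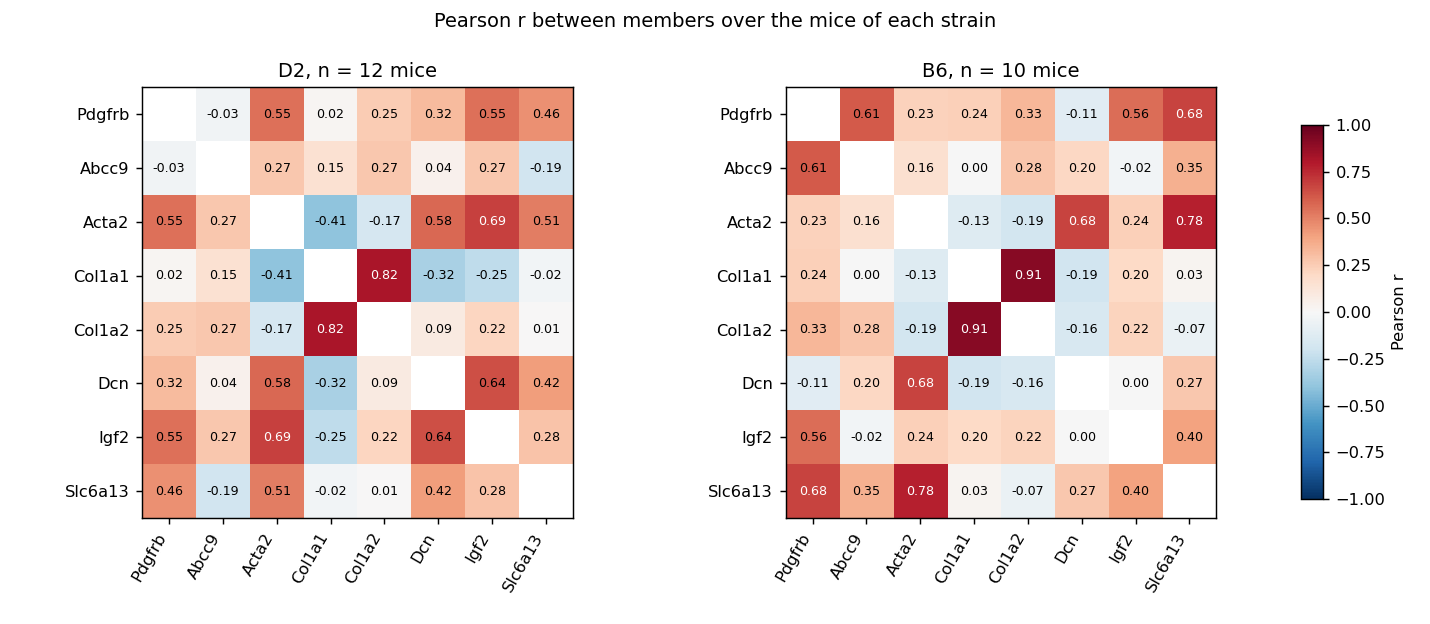
Pearson r between the gene values of each pair of 8 genes, over 12 D2 mice (left) and 10 B6 mice (right), with the colour scale running between -1 and 1. The pair of Col1a1 and Col1a2 has the highest r in both panels, and the remaining squares are mixed in sign.

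Col1a1 and Col1a2 correlated at r = 0.82 in D2 (n = 12, permutation p = 0.00091, adjusted over 56 relations p = 0.0255) and at r = 0.91 in B6 (n = 10, permutation p = 0.00028, adjusted p = 0.0157), two-sided. Spearman's rho was 0.94 in D2 (permutation p = 1e-05, the smallest the permutations can give, adjusted p = 0.00056) and 0.90 in B6 (permutation p = 0.00081, adjusted p = 0.0227). Without the 2 mice farthest from the median of Col1a1, r was 0.78 in D2 and 0.90 in B6. Within the letter A arrays it was 0.87 in D2 (n = 10) and 0.90 in B6 (n = 8). With the letter as a block it was 0.83 in D2 and 0.90 in B6. The letter B arrays, 2 in each strain, were too few for a value of their own.

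The widest gap between neighbouring Col1a1 values was 0.28 in D2 and 0.34 in B6. The pair was also read below it in each strain, a step chosen after seeing the data. In D2 the 5 mice highest in Col1a1 (4.92 to 5.36) had Col1a2 values of 4.89 to 5.03. The other 7 D2 mice (4.43 to 4.65) had Col1a2 values of 4.16 to 4.82, and the lowest, 4.16, was a letter B array. In B6 the 3 mice highest in Col1a1 (4.82 to 4.89) had Col1a2 values of 4.81 to 5.03, and the other 7 had Col1a1 of 4.10 to 4.48 and Col1a2 of 4.30 to 4.76. Among the 7 mice below the gap, a narrower range of Col1a1, r was 0.68 in D2 (exact permutation p = 0.0909) and 0.71 in B6 (exact permutation p = 0.0714). Neither value had a p under 0.05.

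**Figure D5:**
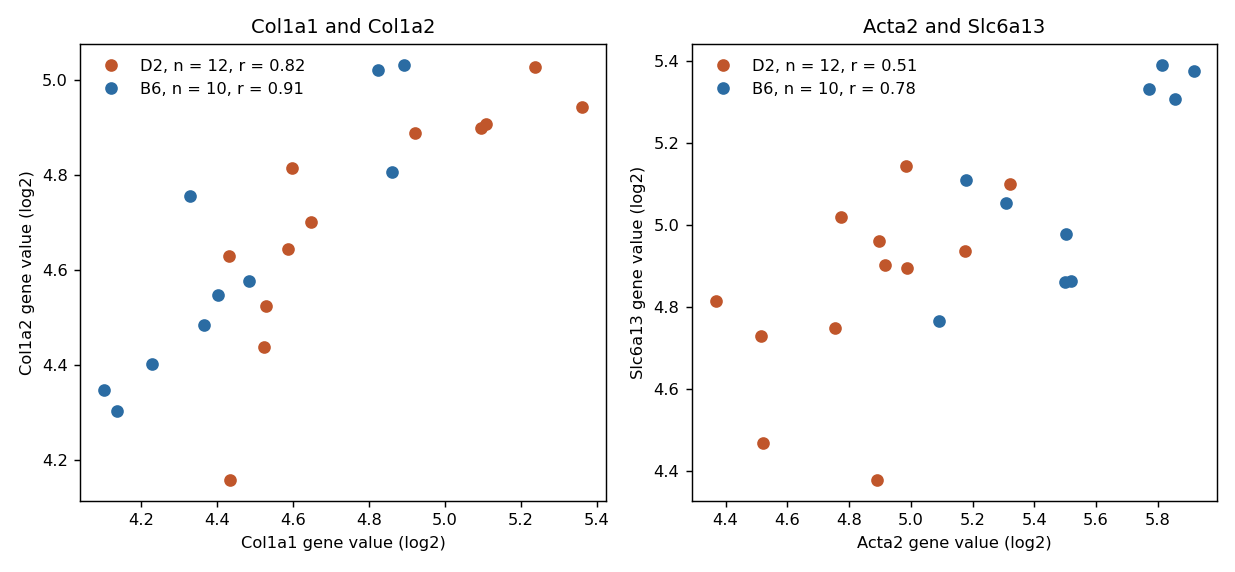
Gene values (log2) of Col1a2 against Col1a1 (left) and of Slc6a13 against Acta2 (right), 1 point per mouse, D2 (n = 12) and B6 (n = 10) with r within each strain. The collagen points form a rising band in both strains, with r of 0.82 in D2 and 0.91 in B6, and the right panel shows r of 0.51 in D2 and 0.78 in B6.

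After the strain mean of each gene was subtracted, Col1a1 and Col1a2 were each other's nearest neighbour of 16015 genes over the 22 arrays, with r = 0.857. Within a single strain they were not. Among the genes most like Col1a1, Col1a2 was rank 7 in D2 and rank 12 in B6. Among those most like Col1a2, Col1a1 was rank 14 in D2 and rank 11 in B6. Over the 22 arrays, other collagens stood further off. Col6a3 was rank 107 (r = 0.66) and Col3a1 rank 183 (r = 0.62) among the genes most like Col1a1. Between Col1a1 and Col3a1, r was 0.47 in D2 and 0.80 in B6, and Col12a1 had a negative r in both strains (-0.28 in D2 and -0.47 in B6).

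The remaining pairs did not pass adjustment by r. Acta2 and Slc6a13 correlated at r = 0.51 in D2 and 0.78 in B6, where the permutation p was 0.0119 and the adjusted p 0.191 (n = 10). Without the 2 mice farthest from the median it was 0.50 in D2 and 0.63 in B6. Acta2 and Dcn correlated at r = 0.58 in D2 and 0.68 in B6, and rho in B6 was 0.85 (permutation p = 0.00283, adjusted p = 0.0528, n = 10). Dcn also ran against the array median in B6 (r = -0.79), as Acta2 did in both strains. With the array median taken out, r of Acta2 and Dcn was 0.60 in D2 and 0.49 in B6. Acta2 and Igf2 correlated at r = 0.69 in D2 (permutation p = 0.0137, adjusted p = 0.191, n = 12) and 0.24 in B6. No difference of r between the strains was tested.

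Pairs of mural genes had lower r than the collagen pair. Pdgfrb and Abcc9, both pericyte genes, had r = -0.03 in D2 and 0.61 in B6. Pdgfrb and Acta2 had r = 0.55 in D2 and 0.23 in B6. Acta2 had r of -0.41 in D2 and -0.13 in B6 with Col1a1, and of -0.17 in D2 and -0.19 in B6 with Col1a2. None of these passed (permutation p of 0.191 to 0.720). Without the 2 mice farthest from the median of Acta2 they were -0.26 and -0.18 in D2, and 0.17 and 0.19 in B6. Igf2 and Pdgfrb had r = 0.55 in D2 and 0.56 in B6, but 0.06 in D2 and -0.08 in B6 in the letter A arrays alone, and 0.10 in D2 and 0.12 in B6 with the letter as a block, so these values rest on the letter B arrays.

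Lum was set beside the others as the mean of its 2 kept probesets, a step chosen after seeing the data, and its values are a description, since 1 of the 2 passed the filter through B6 alone. With Col1a1, r of this mean was -0.36 in D2 and -0.88 in B6. By probeset, 4974977 had r with Col1a1 of -0.34 in D2 and -0.38 in B6, and the dim 5429807 had -0.08 in D2 and -0.79 in B6. With Igf2, r of the mean was 0.78 in D2 and -0.24 in B6.

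The genes most like each member, by r over the 22 arrays after subtracting strain means, are given next, 3 for each. The values are the highest among 16015 and are therefore selected. Pdgfrb was most like Med24 (r = 0.915), Abca2 (0.907) and Them6 (0.893), and Abcc9 most like Rai14 (0.791), Atp12a (0.723) and Rhoj (0.715). Acta2 was most like Elapor2 (0.829), Robo2 (0.819) and Cyp20a1 (0.818). After Col1a2, Col1a1 was most like Agrn (0.847), the heparan sulphate proteoglycan agrin, and Csrnp3 (0.837). After Col1a1, Col1a2 was most like Slc6a8 (0.812), the creatine transporter, and Lmx1b (0.794). Dcn was most like Jmjd4 (0.870), Rpl21 (0.867) and Eif2b2 (0.865), Igf2 most like Zswim3 (0.826), Crk (0.824) and Atp6v0e2 (0.816), and Slc6a13 most like Trpv2 (0.809), Vps51 (0.801) and Sqstm1 (0.795). Col1a1 and Col1a2 were the only members whose first neighbour was another member.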

How the data were processed

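Whole-brain RNA of 12 D2 and 10 B6 mice was analysed, grouped by the strain in the labels. The authors deposited 1 log2 value per probeset and array. The submitters' processing notes name RMA, which corrects background and equalises the distributions of the arrays, with affy 1.12.2 in R 2.6.0. The build and the definition of the probesets were not given in the sources used here, and probes follow reference sequence of B6, and no table of D2 variants was used.

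Of 1201338 probesets, 10932 were empty. A probeset was kept if its mean over arrays reached the median of such means, and a gene value was the median of at least 3 kept probesets with 1 symbol. Of the probesets with values, 309786 had 1 symbol, 6308 several and 874312 none. Symbols were updated through RefSeq names (17975 current, 3981 updated, 295 kept as given). Promoter sequences are RefSeq's (GRCm38.p6), and their coordinates are not those of the array.

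D2 was compared with B6 by limma 3.58.1 in R 4.3.3 (lmFit, eBayes, Benjamini-Hochberg over all features), and exon usage also required an index difference of at least 0.5. Within-strain correlations had 100000 permutations. The functions were tested on simulated data, with 50 changed features of each size. The gene test recovered 8% of differences of 0.25, 50% of 0.5 and 98% of 1. The probeset test recovered 4% of differences of 0.5, 46% of 1 and 96% of 2. The simulations gave 131 gene calls and 80 probeset calls, where the data gave 1735 and 23265. With fewer calls the adjustment asks for a smaller p, so these shares do not measure recovery in the data. They show that the functions miss small differences. A missing call therefore does not show that a gene or probeset is equal in the strains. Precision is limited by the number of arrays, as arrays carry no depth of reads, and p-values measure the spread between mice. Alternatives were the filter, the mean over probesets, scaling, the file letter and arrays left out.

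The members, lists, tests and alternatives were chosen with earlier results of these data known. Named genes were the members, up to 4 called genes of each list (or up to 2 uncalled ones where none was called), the 3 nearest neighbours of each member, and called or brightest probesets. Other list genes named (such as Rgs5, Myh11, Tagln, Kcnj8, Pdgfra, Bgn, Col12a1, the actins and the collagens beside Col1a1) were chosen after their values were seen. Figures were drawn with matplotlib 3.10.9.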

Additional observations from a re-analysis of the deposited data

How the results depend on the processing

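The strains share no replicate numbers. No paired analysis was possible because B6 and D2 mice carry different numbers. Acta2 was lower in D2 in all 9 alternatives (-0.87 to -0.39) and lost its call in 2 of them, with the array median as a covariate (-0.39, adjusted p = 0.191) and in the letter B arrays alone (-0.87, adjusted p = 0.147, limma, 2 arrays against 2, added after seeing the data). Adjusted p over the 9 was 1.99e-05 to 0.191. The direction of Pdgfrb, Slc6a13, Col1a1 and Col1a2 was the same in all 9. Igf2 turned to 0.34 with no filter, 0.077 with the mean over probesets, 0.017 with arrays centred and 0.053 with the covariate, Abcc9 to 0.054 with arrays centred and 0.23 in the letter B arrays, and Dcn to -0.098 in the letter B arrays, none of them called. The cause was not tested.

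Against 1735 genes called, the mean over probesets gave 2718, the covariate 495 and the letter B arrays 75. Against 1 of the 8 genes, the mean over probesets and the letter block gave 3 each, the letter A arrays 2, and the covariate and the letter B arrays 0. Against 23265 probesets called, of which 13 were of the 9 genes, the covariate gave 10983 and 2, and the letter B arrays 436 and 0. Against 3929 exon usage calls, the covariate gave 2118 and the letter B arrays 0. The 1 exon usage call in the set became 2 with the mean over probesets and 0 with the 75th percentile filter (3.46), the covariate, the letter A arrays, the letter B arrays, and without D2 arrays 13, 14 and 19. Pairs at r of 0.7 or more in D2 were 2 with Lum, with the covariate and in the letter A arrays, and 3 with the 75th percentile filter, the mean over probesets and without D2 arrays 13, 14 and 19, against 1. In B6 they were 5 with the mean over probesets and 1 with arrays centred and without the 2 farthest arrays, against 2. The r of Col1a1 and Col1a2 was 0.75 to 0.96 over the settings in both strains. With the letter as a block, added after seeing the data, pairs were 1 in D2 and 3 in B6. Pairs were not run in the letter B arrays alone, 2 in each strain.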
